A study of Mus musculus with 6 samples.

Results

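The 39 genes described here encode the enzymes that build the lipid-linked sugar chain of N-glycosylation, transfer it to protein and begin to trim it, from the making of dolichol to the Golgi enzyme encoded by Mgat2. They were chosen by symbol from the 47561 rows of the count tables, and each symbol had exactly 1 row. The set was drawn up around Alg3 with the comparison of Piezo1 KO with control cells already known. The KO and control values of the 39 genes are therefore a description, and the calls that tests across all genes made among them are counted once below and support nothing. RNA was measured in sorted LT-HSCs, long-term hematopoietic stem cells, from which all blood lineages of the bone marrow derive. There were 3 libraries from mice titled Piezo1 KO and 3 from control mice with the genotype WT. Piezo1 encodes a calcium-permeable channel that opens under mechanical force. The genotype field of KO replicates 2 and 3, and the description of several libraries, carry other Piezo numbers than the titles, and the titles were followed. The labels state neither the deleted part of Piezo1, nor a Cre driver, nor age, nor whether each library came from its own mouse, so the spread between libraries may be technical.

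N-glycosylation starts on dolichol, a long isoprenoid alcohol of the endoplasmic reticulum (ER) membrane. Enzymes on the cytosolic face add N-acetylglucosamine and mannose, the lipid is flipped, and enzymes on the lumenal face add further mannose and glucose from dolichol-phosphate donors. Oligosaccharyltransferase then moves the finished chain to asparagine residues of new proteins, and glucosidases and mannosidases trim it as the protein folds and travels to the Golgi. The stem cell receptor Kit is an N-glycoprotein, and inherited defects of many of these enzymes cause congenital disorders of glycosylation in humans.

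Library totals lay between 59435258 and 64653956 counts, and each of the 39 genes had at least 284 counts in every library. Piezo1 had 4.28, 7.99 and 9.46 counts-per-million (CPM, with library totals scaled by the trimmed mean of M values) in KO replicates 1, 2 and 3, against 16.95, 7.02 and 24.3 CPM in control replicates 1, 2 and 3, so control replicate 2 lay inside the KO range. All 9 LT-HSC markers were counted in every library, with sums of 811 to 1069 CPM in KO and 925 to 1264 CPM in control. Kit was higher in every KO library, at a mean of 320 CPM, against 185 CPM in controls. Ly6a was lower in every KO library, at a mean of 123 CPM, against 327 CPM in controls. Procr overlapped between the groups, at a mean of 13.8 CPM in KO libraries, against 48.7 CPM in controls. The 4 progenitor markers summed to 26.4 to 73.7 CPM in KO and 29.4 to 47.1 CPM in control. Erythroid markers summed to between 8229 and 26304 CPM in KO and between 2567 and 7566 CPM in control, and the 4 globin genes of the 9 were higher in every KO library than in any control library. Car1 and Klf1, also erythroid markers, overlapped, with log2 fold changes of -1.22 and -0.67. Megakaryocyte and platelet markers summed to 1892 to 2798 CPM in KO and 966 to 1255 CPM in control, with 5 of 8 apart. Granulocyte markers summed to 120 to 1155 CPM in KO libraries, and to 176, 222 and 11728 CPM in control replicates 1, 2 and 3. B and plasma cell markers summed to 33.7 to 40.5 CPM in KO, and to 54.7, 89.7 and 670 CPM in the same order in control. Of these, Jchain, the joining chain of secreted antibodies, stood at 633 CPM in control replicate 3 and at 0 in the other 5 libraries. T and NK markers summed to 247 to 255 CPM in KO and 130 to 208 CPM in control, nearly all of it Nkg7, with Cd8a at 0 in every library. In such bulk RNA, fewer cells of a type and less RNA per cell cannot be told apart, and the part of these other cells in the values below was not tested.

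Of the 39 genes, 29 had a negative log2 fold change of KO over control, 74.4%, against 47.8% of the 16022 genes tested. Their median log2 fold change was -0.20, against 0.03 over all genes tested, and without Alg3 it was -0.18 over 38 genes. The 3 KO libraries lay below the 3 control libraries for 6 genes, Alg3, Dolk, Alg11, Pmm2, Stt3a and Ddost, where 8.76% of all genes tested did so. They lay above them for 2 genes, Prkcsh and Man1b1, where 10.7% of all genes tested did so. The other 31 genes overlapped between the groups.

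**Figure D1:**
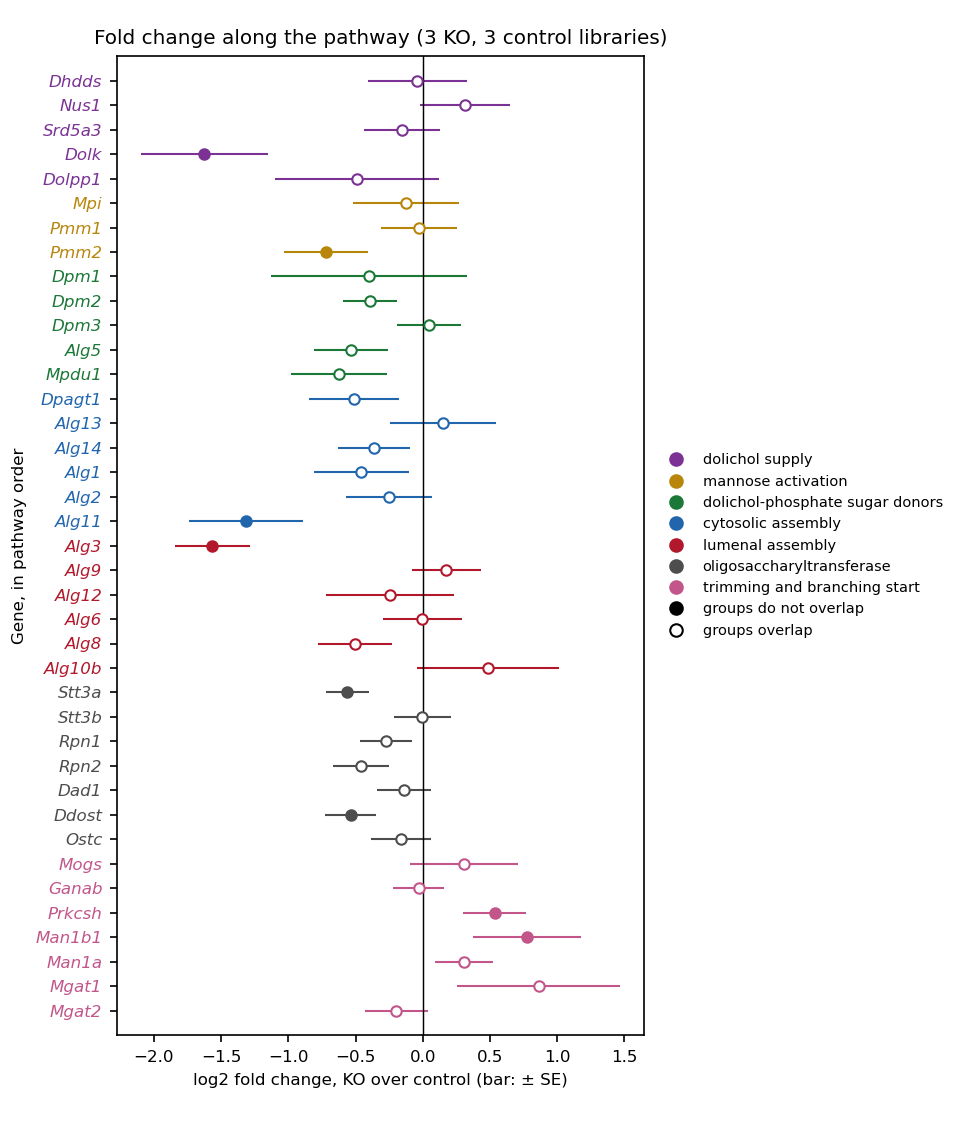
Log2 fold change of KO over control for each of the 39 genes, with horizontal bars for the SE (3 KO and 3 control libraries). Genes run in pathway order from dolichol supply at the top to trimming and the start of branching at the bottom. Filled points mark the 8 genes whose groups do not overlap. Alg3 at -1.57, Dolk at -1.62 and Alg11 at -1.31 stand farthest left. Of the 7 genes of trimming and the start of branching, 5 lie right of 0.

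No gene of the 39 passed an adjusted p under 0.05 in edgeR's quasi-likelihood test over 16022 genes, which called 0 genes higher and 0 lower (0% each). At an unadjusted p under 0.05, 5 of the 39 genes (Alg3, Dolk, Alg11, Stt3a and Ddost) were lower and 0 higher, beside 5.59% lower and 5.44% higher among all genes tested. DESeq2 called 3 of the 39 (Alg3, Dolk and Stt3a) lower and 0 higher, beside 1.79% and 1.52% of all genes tested, and limma-voom called 0 of the 39, with 5 lower and 0 higher at an unadjusted p under 0.05. The 5 became 9 without control replicate 2 and 8 without control replicate 3. These counts rest on a contrast that was known when the genes were chosen and are given as a description.

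Promoter windows of 250 bases before the gene start were searched, since genes of the ER carry known elements there. RefSeq windows on GRCm38.p6 were matched for 35 of the 39 genes, all but Alg2, Alg11, Dpagt1 and Ostc. CCAAT, the site of the factor NF-Y, was present in either orientation in 16 of the 35, or 45.7%, beside 37.5% of 27025 genes with a window and 40.5% of those tested. The ER stress response element, CCAAT and CCACG with 9 bases between them, was present in Alg12 alone. Its share was 0.13% of all genes and 0.18% of those tested. TGACGTG, an element of the unfolded protein response, was present in 3 of 35, Dhdds, Dpm2 and Mogs. That element was in 1.85% of all genes and 2.7% of those tested. CACGTG, the E-box, was present in 5 of 35, Dhdds, Dolk, Dpm2, Prkcsh and Srd5a3. The E-box was in 6.86% of all genes and 9.6% of those tested. A match describes the letters and does not show binding.

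The windows below are those of genes lower in every KO library that hold any of these elements, and of Alg12, the assembly gene with the full stress element. They are written 5′ to 3′ along the gene, with the elements in capitals. The windows lie at chr16:20610762-20611011 (minus strand) for Alg3, chr2:30286355-30286604 (minus strand) for Dolk, chr9:36767623-36767872 (minus strand) for Stt3a, chr4:138304488-138304737 (plus strand) for Ddost and chr15:88819319-88819568 (minus strand) for Alg12, all GRCm38.p6. ATTGG in Ddost is CCAAT on the other strand.
Alg3: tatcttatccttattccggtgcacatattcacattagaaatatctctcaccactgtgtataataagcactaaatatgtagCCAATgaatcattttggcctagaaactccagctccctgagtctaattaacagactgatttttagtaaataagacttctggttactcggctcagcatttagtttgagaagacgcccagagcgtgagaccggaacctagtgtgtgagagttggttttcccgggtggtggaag
Dolk: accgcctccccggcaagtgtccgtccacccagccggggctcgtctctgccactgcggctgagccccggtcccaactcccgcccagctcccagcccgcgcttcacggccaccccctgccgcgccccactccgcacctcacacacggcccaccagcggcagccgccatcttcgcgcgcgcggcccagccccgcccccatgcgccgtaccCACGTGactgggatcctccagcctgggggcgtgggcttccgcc
Stt3a: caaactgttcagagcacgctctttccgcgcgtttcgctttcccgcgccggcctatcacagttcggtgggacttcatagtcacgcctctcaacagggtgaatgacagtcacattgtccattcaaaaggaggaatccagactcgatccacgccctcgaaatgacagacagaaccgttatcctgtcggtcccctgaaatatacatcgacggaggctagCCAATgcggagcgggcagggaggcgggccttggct
Ddost: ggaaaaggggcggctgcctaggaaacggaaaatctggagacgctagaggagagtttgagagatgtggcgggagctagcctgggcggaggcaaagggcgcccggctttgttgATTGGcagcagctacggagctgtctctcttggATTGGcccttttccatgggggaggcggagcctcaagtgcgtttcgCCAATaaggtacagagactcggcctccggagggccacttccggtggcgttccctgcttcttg
Alg12: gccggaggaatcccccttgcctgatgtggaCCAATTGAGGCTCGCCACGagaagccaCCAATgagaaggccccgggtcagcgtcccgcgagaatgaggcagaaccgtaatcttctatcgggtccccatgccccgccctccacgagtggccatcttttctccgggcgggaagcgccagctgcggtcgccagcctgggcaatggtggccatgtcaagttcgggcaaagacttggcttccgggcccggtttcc
Alg3, with 1 CCAAT far from the start, has a window of 41.6% G and C, where Dolk has 76.0%, Stt3a 56%, Ddost 60.0% and Alg12 63.6%. Ddost holds 3 copies of CCAAT and Stt3a 1 near the start, while Dolk holds the E-box and no CCAAT. Of these 4 lower genes, Alg3, Stt3a and Ddost hold CCAAT and Dolk does not, so the 4 share no single element of those searched. Pmm2 and Alg11, also lower in every KO library, are not printed, as Pmm2 held none of the elements and Alg11 had no window. Alg12, with the full stress element, overlapped between KO and control. Any link between these elements and the KO values was not tested.

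Alg3 encodes the mannosyltransferase that adds the first mannose on the lumenal side of the ER membrane, from dolichol-phosphate mannose. Alg3 had 37.3, 29.6 and 24.3 CPM in KO replicates 1, 2 and 3, against 121, 74.6 and 74.5 CPM in control replicates 1, 2 and 3. Every KO library lay below every control library, and control replicate 1 stood above the other two controls. The means were 30.4 ± 6.53 CPM in KO libraries, against 90.0 ± 26.7 CPM in controls (SD, n = 3 per group), a log2 fold change of -1.57 (SE 0.28). Among the 8 genes with groups apart, Alg3 had the widest gap between the nearest KO and control libraries, 0.98 on the log2(CPM + 1) scale, and Pmm2 the narrowest at 0.0045. The log2 fold change of Alg3 stayed between -1.76 and -1.29 over 13 other settings, with the upper value reached without control replicate 1. Eef1akmt4, a lysine methyltransferase gene on the opposite strand, shares 143 exon bases with Alg3 in the GENCODE M21 annotation, 8.87% of the exon bases of Alg3. Its values were 53.1, 42.0 and 56.5 CPM in KO and 118, 57.2 and 106 CPM in control replicates 1, 2 and 3, also without overlap. As the strand of the libraries is not stated, reads from the shared bases cannot be told apart.

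The other 5 genes of lumenal assembly overlapped between the groups. Alg9, which adds the next mannose, averaged 23.7 ± 1.11 CPM in KO libraries, against 20.9 ± 3.30 CPM in controls (SD, n = 3 per group), with a log2 fold change of 0.18 (SE 0.26). Alg12, a further mannosyltransferase of this arm, had 7.76, 11.7 and 5.13 CPM in KO, against 11.2, 11.1 and 6.87 CPM in control replicates 1, 2 and 3. KO replicate 2 was the highest library of Alg12 and KO replicate 3 the lowest. The glucosyltransferase genes Alg6, Alg8 and Alg10b, which cap the chain with glucose in that order, had log2 fold changes of -0.0047 (SE 0.29) for Alg6, -0.50 (SE 0.27) for Alg8 and 0.49 (SE 0.53) for Alg10b. Alg8 averaged 35.8 ± 3.16 CPM in KO libraries, against 50.8 ± 16.4 CPM in controls, and Alg10b averaged 12.7 ± 5.86 CPM in KO libraries, against 9.06 ± 4.41 CPM in controls (SD, n = 3 per group). By mean CPM per kilobase of exon, Alg3 was the most abundant of these 6 genes in both groups. It stood at 18.9 ± 4.05 CPM per kb in KO and 55.8 ± 16.6 CPM per kb in control. In KO it was close to Alg8 at 17.6 ± 1.55 CPM per kb. Alg3 was above Alg8 in KO replicate 1, at 23.1 against 18.1 CPM per kb. It was below Alg8 in KO replicates 2 and 3, at 18.3 against 18.8 and 15.1 against 15.8 CPM per kb. Among all 39 genes ranked by CPM per kb, Alg3 stood at place 19 in KO and place 9 in control. Within a library, Alg3 exceeded Alg9 per length by 2.67, 2.25 and 1.91 times in KO replicates 1, 2 and 3, and by 8.70, 7.09 and 6.87 times in control replicates 1, 2 and 3. This ratio does not depend on the scaling between libraries, and its groups did not overlap. Alg3 was chosen with the contrast known and Alg9 differed little, so the ratio is a description and adds no support.

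**Figure D2:**
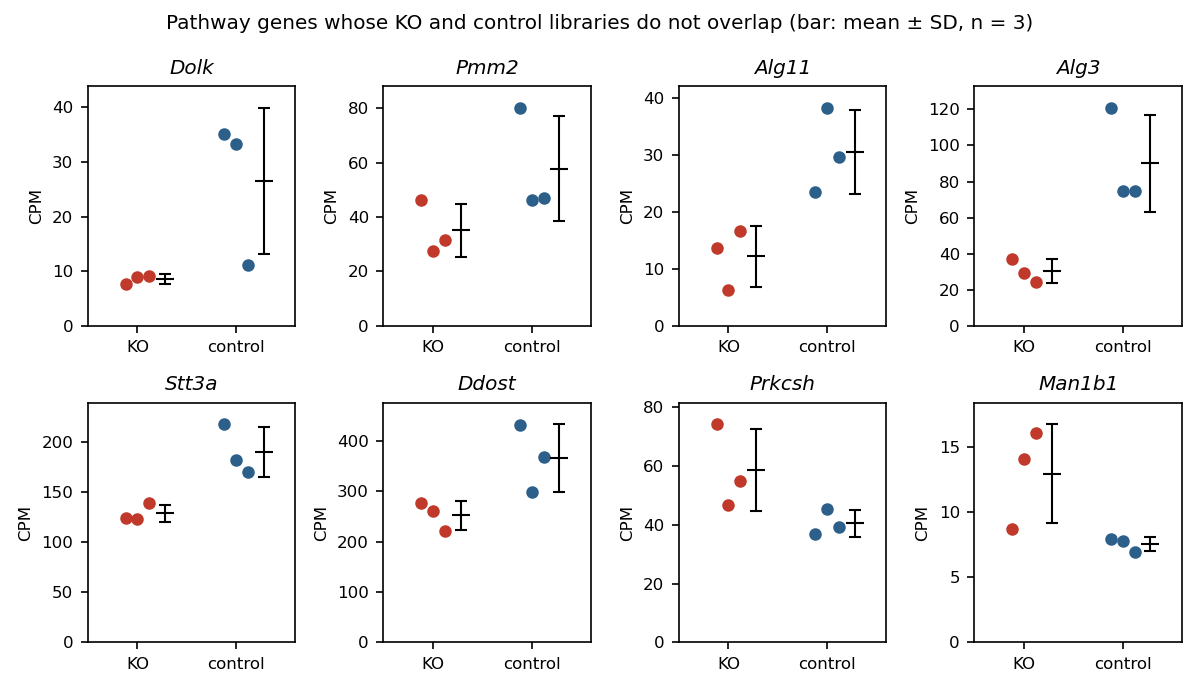
CPM of the 8 pathway genes whose KO and control libraries do not overlap, 1 panel a gene, with 1 point a library in replicate order and the mean ± SD at the right of each group (n = 3). Alg3 lies between 24.3 and 37.3 CPM in KO and between 74.5 and 121 CPM in control, while for Pmm2 the highest KO library and the lowest control library almost touch.

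At the start of the pathway, Dolk, the dolichol kinase gene whose product makes dolichol phosphate, had 7.63, 9.02 and 9.12 CPM in KO and 35.2, 33.2 and 11.1 CPM in control replicates 1, 2 and 3. The KO libraries were close together, while control replicate 3 lay nearer to them than to the other controls. Its promoter window, printed above, is the one with the E-box. The log2 fold change was -1.62 (SE 0.47), -1.99 without control replicate 3 and -1.37 without control replicate 1. Nus1 and Dhdds encode the subunits of the cis-prenyltransferase that extends the isoprenoid chain. Nus1, the most abundant of the 5 dolichol genes by CPM, had 60.6, 46.3 and 38.1 CPM in KO, against 23.4, 51.4 and 41.7 CPM in control replicates 1, 2 and 3. Dhdds averaged 30.6 ± 12.5 CPM in KO libraries, against 31.4 ± 8.95 CPM in controls, and Srd5a3, a gene needed for the reduction of polyprenol to dolichol, 32.5 ± 9.89 CPM in KO libraries, against 36.2 ± 4.02 CPM in controls (SD, n = 3 per group). All 3 overlapped, so of the dolichol genes the kinase alone had groups apart. Dolpp1, the phosphatase gene of dolichol pyrophosphate recycling, had 16.99, 7.09 and 4.55 CPM in KO and 6.999, 18.0 and 15.2 CPM in control replicates 1, 2 and 3. Its replicates differed more than its groups, and the log2 fold change of -0.49 (SE 0.61) was -1.21 without KO replicate 1. Per length, Dolk stood at 0.483, 0.614 and 0.310 of Dhdds in KO replicates 1, 2 and 3, and at 1.39, 1.5 and 0.788 of it in control replicates 1, 2 and 3, without overlap. As Dolk had groups apart and Dhdds differed little, this ratio is a description and adds no support.

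Mannose enters the pathway through mannose-6-phosphate, made by the isomerase encoded by Mpi, which phosphomannomutases turn into mannose-1-phosphate. Pmm2, the mutase gene mutated in the most common human disorder of N-glycosylation, had 46.2, 27.4 and 31.6 CPM in KO and 80.1, 46.3 and 46.9 CPM in control replicates 1, 2 and 3. The groups barely parted, since KO replicate 1 came within 0.0045 on the log2(CPM + 1) scale of control replicate 2, and the log2 fold change was -0.72 (SE 0.31). Its paralog Pmm1 had 55.5, 53.8 and 38.4 CPM in KO and 40.0, 68.7 and 42.0 CPM in control, a log2 fold change of -0.03 (SE 0.28). Mpi had 26.8, 10.5 and 24.6 CPM in KO and 22.0, 25.4 and 20.04 CPM in control. Pmm1 and Mpi overlapped between the groups, and the ratio of Pmm2 to Pmm1 per length also overlapped, at 0.355 ± 0.0903 in KO and 0.623 ± 0.333 in control (SD, n = 3 per group).

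Dolichol-phosphate mannose, the donor used by Alg3, Alg9 and Alg12, is made by a synthase of 3 subunits encoded by Dpm1, Dpm2 and Dpm3. Dpm2, the most abundant of the donor genes by CPM, had 74.9, 93.0 and 78.7 CPM in KO and 107, 86.5 and 130 CPM in control replicates 1, 2 and 3. Dpm3 averaged 80.4 ± 5.39 CPM in KO libraries, against 77.9 ± 23.6 CPM in controls (SD, n = 3 per group). Both regulatory subunits overlapped between the groups. The catalytic subunit gene Dpm1 was the most variable of the donor genes, with 83.0, 22.1 and 38.3 CPM in KO and 14.1, 72.0 and 103 CPM in control replicates 1, 2 and 3. Dpm1 shares 895 exon bases, 35.9% of its own, with Gm20716 on the same strand in GENCODE M21. Gm20716 had 107, 146 and 160 CPM in KO and 154, 0 and 0 CPM in control replicates 1, 2 and 3. Its reads were thus listed in the 4 libraries that include the 3 lowest values of Dpm1, and the sum of both genes was 190, 168 and 198 CPM in KO and 168, 72.0 and 103 CPM in control. The level of Dpm1 alone is uncertain for this reason, and so is its log2 fold change of -0.40 (SE 0.73), which was -1.07 without KO replicate 1.

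**Figure D3:**
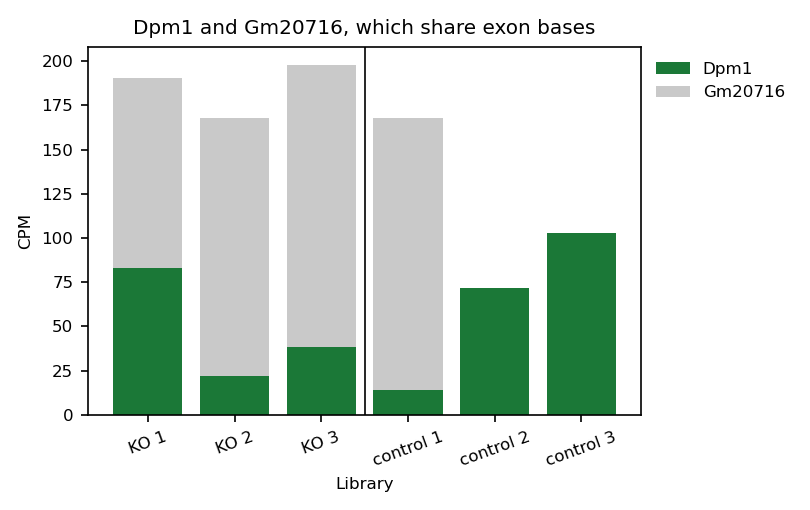
Stacked CPM of Dpm1 (green) and Gm20716 (grey), which share exon bases, in each of the 3 KO libraries (left) and the 3 control libraries (right). Gm20716 is at 0 in control replicates 2 and 3 and above 100 CPM in the other 4 libraries.

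Alg5, which makes dolichol-phosphate glucose for the later glucosyltransferases, averaged 71.9 ± 20.4 CPM in KO libraries, against 104 ± 21.7 CPM in controls (SD, n = 3 per group). Mpdu1, a membrane protein gene needed for the use of both dolichol-phosphate sugars and the lowest of the donor genes by CPM, had 37.0, 24.7 and 33.8 CPM in KO and 74.1, 31.2 and 41.9 CPM in control replicates 1, 2 and 3. Control replicate 2 of Mpdu1 lay inside the KO range. The log2 fold changes were -0.54 (SE 0.27) for Alg5 and -0.62 (SE 0.36) for Mpdu1. Of the 5 donor genes, 4 had a negative one, beside 47.8% of all genes tested.

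On the cytosolic face, Dpagt1 encodes the enzyme that starts the chain on dolichol phosphate and is the target of the antibiotic tunicamycin. Dpagt1 was the most abundant of these 6 genes by CPM, with 55.3, 84.2 and 53.5 CPM in KO and 119, 102 and 53.7 CPM in control replicates 1, 2 and 3. Control replicate 3 lay at the low end of the KO range. Alg13 and Alg14, whose products together add the next N-acetylglucosamine, had overlapping groups, with a log2 fold change of 0.15 (SE 0.39) for Alg13 and -0.36 (SE 0.27) for Alg14. Alg1, which adds the first mannose of the chain, had 19.0, 10.3 and 12.3 CPM in KO and 22.0, 18.9 and 16.2 CPM in control. Alg1 shares 472 exon bases, 26.8% of its own, with Eef2kmt on the opposite strand, so its counts are uncertain as well. Alg2, the mannosyltransferase gene that acts after Alg1, had a log2 fold change of -0.25 (SE 0.32).

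Alg11 adds the last mannoses on the cytosolic side, and so provides the substrate that is flipped into the lumen and extended by Alg3. Alg11 had 13.7, 6.29 and 16.7 CPM in KO and 23.5, 38.2 and 29.5 CPM in control replicates 1, 2 and 3, without overlap. The means were 12.2 ± 5.35 CPM in KO libraries, against 30.4 ± 7.39 CPM in controls (SD, n = 3 per group), and the log2 fold change was -1.31 (SE 0.42). Alg11 and Alg3, which act on either side of the flip, had the 2 lowest log2 fold changes of the 12 assembly genes. As the set was drawn up around Alg3 with the contrast known, this order is a description and supports no pattern along the pathway.

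**Figure D4:**
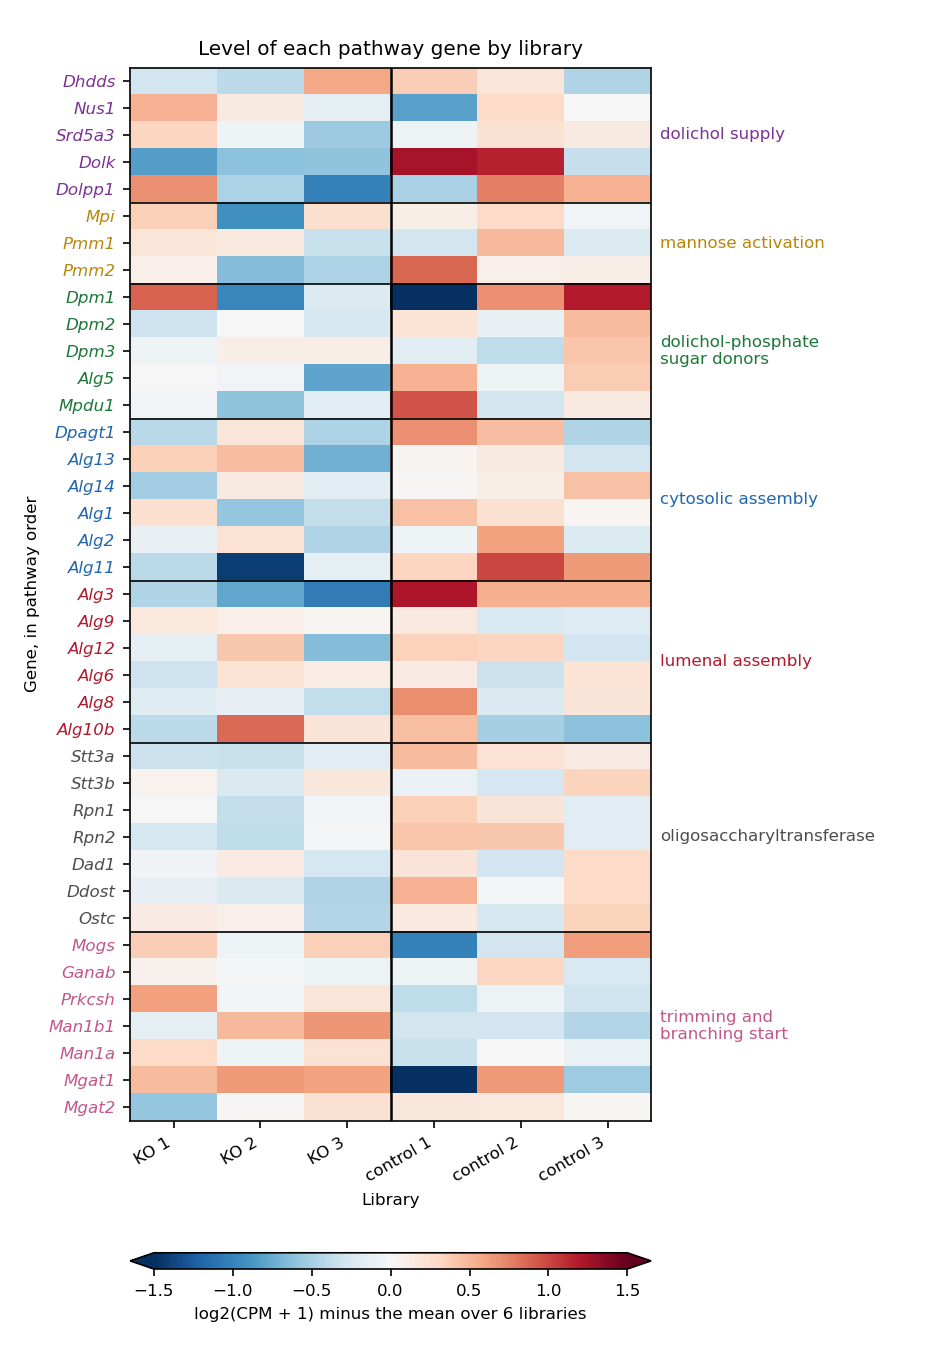
Level of each of the 39 genes in each library as log2(CPM + 1) minus its mean over the 6 libraries (red higher, blue lower, colours capped at 1.5), with the 3 KO libraries left of the 3 control libraries. Alg3, Alg11 and Stt3a are blue in every KO column and red in every control column, while Dpm1 differs widely within both groups and Mgat1 within the controls.

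Oligosaccharyltransferase is the complex that transfers the finished chain. All 7 of its subunit genes among the 39 had a negative log2 fold change, with a median of -0.27, and 2 had groups apart. With trends on GC content and transcript length removed, 6 of 7 were negative. Stt3a encodes the catalytic subunit of the complex bound to the translocon, which acts while the protein is being made. Stt3a had 124, 123 and 139 CPM in KO and 218, 182 and 170 CPM in control replicates 1, 2 and 3, with means of 129 ± 8.80 CPM in KO libraries, against 190 ± 24.7 CPM in controls (SD, n = 3 per group) and a log2 fold change of -0.56 (SE 0.16). Stt3b encodes the alternative catalytic subunit, which acts on sites that were skipped. Stt3b, the lowest of the 7 by CPM, had 128, 106 and 138 CPM in KO and 115, 103 and 155 CPM in control, with means of 124 ± 16.7 CPM in KO libraries, against 124 ± 27.1 CPM in controls. The log2 fold change of Stt3b was -0.0023 (SE 0.21). Stt3a stood at 0.700, 0.839 and 0.722 of Stt3b per length in KO replicates 1, 2 and 3, against 1.37, 1.27 and 0.793 of it in control replicates 1, 2 and 3. Control replicate 3 lay inside the KO range of this ratio, so the groups overlapped.

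Of the other subunit genes, Ddost had 277, 260 and 220 CPM in KO replicates 1, 2 and 3. In control replicates 1, 2 and 3 it had 432, 298 and 367 CPM. The log2 fold change was -0.53 (SE 0.19), with groups apart. Rpn1 and Rpn2, the ribophorin genes, overlapped at a log2 fold change of -0.27 (SE 0.19) for Rpn1 and -0.46 (SE 0.21) for Rpn2, and for both control replicate 3 lay inside the KO range, at 198 CPM for Rpn1 and 215 CPM for Rpn2. Dad1, the most abundant of the 39 genes by mean CPM over the 6 libraries, had 318, 361 and 276 CPM in KO and 378, 271 and 405 CPM in control. Ostc, an accessory subunit gene, averaged 259 ± 52.1 CPM in KO libraries, against 289 ± 56.6 CPM in controls (SD, n = 3 per group). Dad1 and Ostc overlapped, and control replicate 3 was their highest library. Per kilobase of exon, Ostc and Ddost ranked at places 1 and 2 of the 39 in both groups, with 243 ± 48.8 and 119 ± 13.6 CPM per kb in KO and 271 ± 53.0 and 172 ± 31.5 CPM per kb in control. The catalytic subunits stood below the other 5 of these genes per length in both groups, at 21.9 ± 1.5 CPM per kb for Stt3a and 29.4 ± 3.96 CPM per kb for Stt3b in KO, and at 32.4 ± 4.21 and 29.4 ± 6.43 CPM per kb in control. Stt3a was below Stt3b per length in all 3 KO libraries and in control replicate 3, and above it in control replicates 1 and 2.

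**Figure D5:**
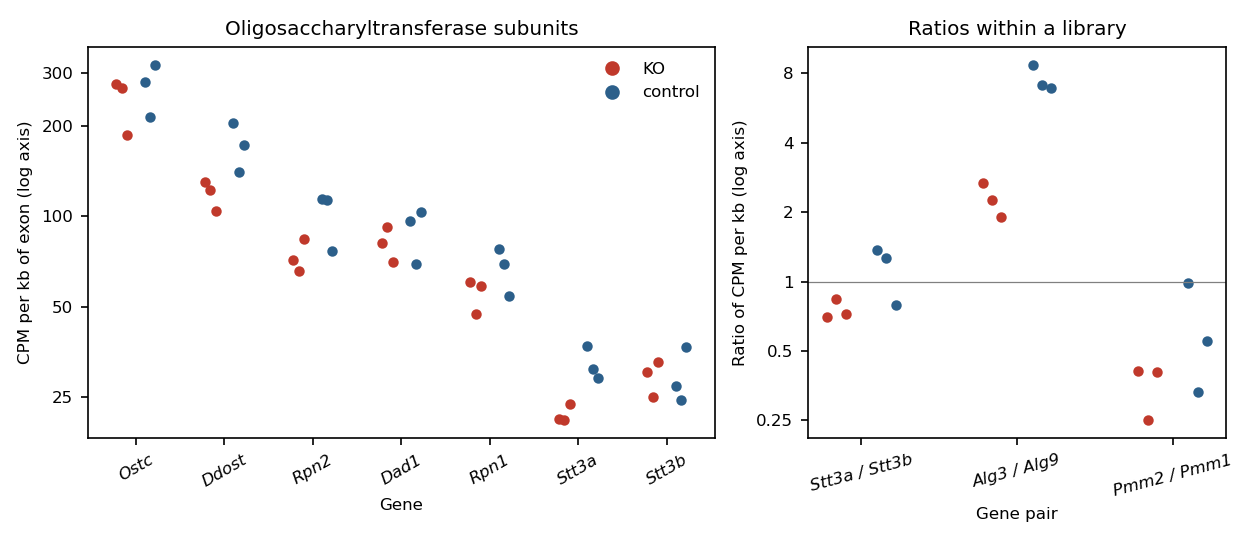
Left, CPM per kb of exon on a log axis for the 7 oligosaccharyltransferase genes, 1 point a library, with KO points (red) left of control points (blue). Right, ratios of CPM per kb within each library on a log axis: Stt3a to Stt3b is 0.700 to 0.839 in KO and 0.793 to 1.37 in control, Alg3 to Alg9 is 1.91 to 2.67 in KO and 6.87 to 8.70 in control, and Pmm2 to Pmm1 overlaps.

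The log2 fold changes of 5 of the 7 trimming genes were positive, at a median of 0.31. The other 2, or 28.6%, were negative, beside 47.8% of all genes tested. With trends on GC content and transcript length removed 4 of 7 were positive, at a median of 0.16. Only Prkcsh and Man1b1 of the 7 had groups apart, both higher in KO, as did 10.7% of all genes tested. Glucosidase I, encoded by Mogs, removes the outermost glucose, and glucosidase II, made of the catalytic subunit encoded by Ganab and the beta subunit encoded by Prkcsh, removes the other glucoses. Ganab, the most abundant of the 7 by CPM, had 98.4, 92.7 and 89.1 CPM in KO and 89.9, 117 and 79.6 CPM in control replicates 1, 2 and 3. Prkcsh had 74.1, 46.6 and 54.9 CPM in KO and 36.8, 45.5 and 39.1 CPM in control, with groups apart by only 0.036 on the log2(CPM + 1) scale. The log2 fold changes were -0.03 (SE 0.19) for Ganab and 0.53 (SE 0.23) for Prkcsh. The ratio of Prkcsh to Ganab per length was 1.07 ± 0.214 in KO, against 0.737 ± 0.0925 in control (SD, n = 3 per group), without overlap. As Prkcsh had groups apart and Ganab differed little, this ratio is a description and adds no support. Mogs averaged 79.2 ± 12.9 CPM in KO libraries, against 63.9 ± 36.4 CPM in controls, where it ran from 32.8 to 104 CPM, and its log2 fold change of 0.31 (SE 0.40) was -0.0068 without control replicate 1.

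Man1b1, a mannosidase gene of glycoprotein quality control, was the lowest of the trimming genes by CPM, with 8.72, 14.1 and 16.02 CPM in KO and 7.92, 7.81 and 6.94 CPM in control replicates 1, 2 and 3. Its KO replicate 1 was close to the controls, and the log2 fold change was 0.78 (SE 0.40). Man1a, a Golgi mannosidase gene, averaged 44.0 ± 5.77 CPM in KO libraries, against 35.6 ± 4.14 CPM in controls (SD, n = 3 per group). Mgat1 and Mgat2 encode the N-acetylglucosaminyltransferases that open the way to hybrid and complex chains. Mgat1 had 26.8, 29.98 and 29.4 CPM in KO and 4.69, 29.98 and 12.8 CPM in control replicates 1, 2 and 3. Control replicate 2 was level with the highest KO library of Mgat1 and the other controls lay below every KO library, with a log2 fold change of 0.86 (SE 0.60). It was 1.71 without control replicate 2 and 0.42 without control replicate 1. For Mgat2 it was -0.20 (SE 0.24).

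The genes differed in how far replicates agreed. The median coefficient of variation over the 39 genes was 21.5% in KO and 21.3% in control, against 26.6% and 36.4% over all genes tested, which had a median of 15.03 CPM where the 39 had 43.6 CPM. In control, Mgat1 and Dpm1 varied most, at 81.7% and 71.6%. In KO, Dolpp1 and Dpm1 did, at 68.8% and 66%. Control replicate 1 was the highest library for 12 of the 39 genes and KO replicate 3 the lowest for 12. The mean of log2(CPM + 1) over the 39 genes, relative to each gene's mean over libraries, was -0.0045, -0.13 and -0.17 in KO replicates 1, 2 and 3 and 0.091, 0.15 and 0.061 in control replicates 1, 2 and 3.

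Other genes of the pathway that were not among the 39 were tested with edgeR's quasi-likelihood test over all genes. Of 55 such genes 52 had enough counts, and 0 passed an adjusted p under 0.05 in either direction. At an unadjusted p under 0.05, 3 were higher and 2 lower, beside 5.44% and 5.59% of all genes tested. Their median log2 fold change was -0.04, with 28 negative and 24 positive. The 3 became 1 without KO replicate 1 and 7 without control replicate 3, and the 2 became 4 when either was left out. DESeq2 called 1 higher (Mgat5) and 1 lower (Gnpnat1), and limma-voom called 0. By an unadjusted p under 0.05, limma-voom had 4 in each direction. Groups did not overlap for 5 higher genes and 3 lower ones, beside 10.7% and 8.76% of all genes tested, among them Man1a2, B4galt1 and Fut8, which fall outside the naming rule and were picked after their values were seen.

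The genes lower at an unadjusted p under 0.05 were Gnpnat1 and Idi1. Gnpnat1, an enzyme gene of UDP-N-acetylglucosamine synthesis, had 55.3, 55.3 and 57.4 CPM in KO and 113, 84.1 and 93.9 CPM in control replicates 1, 2 and 3, a log2 fold change of -0.79 (SE 0.18) with an edgeR adjusted p = 0.255. Idi1, an isomerase gene of the isoprenoid route that feeds dolichol, averaged 51.5 ± 7.22 CPM in KO libraries, against 76.8 ± 9.56 CPM in controls (SD, n = 3 per group), a log2 fold change of -0.58 (SE 0.20) with an edgeR adjusted p = 0.374. All 3 KO libraries were lower for both.

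The genes higher at an unadjusted p under 0.05 were Magt1, Uggt1 and Mgat5. Magt1, a subunit gene of the complex that holds Stt3b, averaged 106 ± 9.65 CPM in KO libraries, against 72.0 ± 12.6 CPM in controls (SD, n = 3 per group), a log2 fold change of 0.56 (SE 0.19) with an edgeR adjusted p = 0.373. For its alternative Tusc3 the log2 fold change was -0.33 (SE 0.27), at an edgeR adjusted p = 0.738, and its groups overlapped. Uggt1, the folding sensor gene of the ER, averaged 70.2 ± 6.34 CPM in KO libraries, against 47.1 ± 6.45 CPM in controls, with an edgeR adjusted p = 0.368, and its log2 fold change of 0.57 (SE 0.19) was 0.01 with trends on GC content and transcript length removed. Mgat5, the Golgi branching enzyme gene, had 5.38, 6.71 and 10.7 CPM in KO and 0.726, 1.51 and 1.19 CPM in control replicates 1, 2 and 3. Its log2 fold change was 2.74 (SE 0.67), with an edgeR adjusted p = 0.264. All 3 KO libraries were higher for each of these genes, and none of the differences passed the threshold in edgeR's test.

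By list, 6 of 9 genes of dolichol precursors and sugar nucleotides and 5 of 12 of glycan-dependent folding had a negative log2 fold change. So did 5 of 12 of Golgi branching and 7 of 13 of GPI anchors and O- and C-linked mannose, beside 47.8% of all genes tested. The last list holds genes of pathways outside N-glycosylation that draw on dolichol-phosphate mannose, though not all of its genes use that donor. It had 0 of 13 tested genes with groups apart and a median log2 fold change of -0.13. Its edgeR counts at an unadjusted p under 0.05 were 0 higher and 0 lower.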

How the data were processed

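Counts per gene, whole numbers that were not normalized, were deposited by the authors in 1 table of 47561 rows for each of 6 libraries. Per the labels' protocols, TRIZOL was used to extract total RNA and a TruSeq RNA kit to prepare libraries; strand is not stated. The build mm10 and the tools featureCounts 1.6.4, HISAT2 2.1, cutadapt 1.16.5, DESeq2 2.11.40.6 and bcl2fastq 2.19 are named in the submitters' processing notes, with no role or settings. Gene models may be later than the RefSeq table used for sequences: of 1465 symbols starting with LOC118, 1 is in that table.

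Genes were kept by filterByExpr, scaled by TMM and tested with edgeR 4.0.16 in R 4.3.3 (glmQLFit and glmQLFTest, KO over control, Benjamini-Hochberg adjustment, threshold 0.05). The common BCV (biological coefficient of variation) came to 0.755. The SE is the log2 fold change over the square root of F. CPM are on TMM-scaled totals. Exon lengths are unions of GENCODE M21 exons, which need not match the gene models counted. The edgeR fit was also run on simulated counts, and its recovery of known differences is not given here. The 39 genes and the lists were chosen with earlier results of these data known. Values by library are printed for Alg3, for genes with groups apart and for the highest and lowest gene of each role by mean CPM over the 6 libraries. Other pathway genes were named where groups were apart and the unadjusted p was under 0.05. Alternatives were other size factors, no filter or 5 CPM in 3 libraries, DESeq2 1.42.0, limma-voom (limma 3.58.1), a replicate block, each library left out and, added after the data were seen, removal of trends on GC content and transcript length, for which 89.5% of tested rows had values. Counting error is small at these depths (3 counts are 0.044 to 0.054 CPM) and the spread between libraries sets the precision.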

Additional observations from a re-analysis of the deposited data

How the results depend on the processing

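Over 13 alternative settings, the median log2 fold change of the 39 genes stayed between -0.26 and -0.13, and 26 of the 39 genes kept the sign of their log2 fold change in all of them, 19 negative and 7 positive. The other 13, mostly near 0, changed sign in 1 to 5 settings, led by Stt3b and Alg6. DESeq2 called 244 genes higher and 286 lower, 3 of the 39 lower, and 1 higher and 1 lower of the other pathway genes, where the edgeR counts were 0. With at least 5 CPM in 3 libraries, edgeR called 1 gene lower. At an unadjusted p under 0.05, the other pathway genes lower in KO numbered 4 with that filter, 6 with DESeq2 and 4 with limma-voom, against 2. With each library left out in turn, genes at that level ranged from 562 to 1339 higher and from 573 to 1299 lower, and adjusted calls from 0 to 1 higher. The extremes came without KO replicate 3 (562 higher, 584 lower), control replicate 1 (573 lower) and control replicate 3 (1339 higher, 1299 lower), and the 1 adjusted call without control replicate 1. Of the 39, 0 to 1 were higher and 4 to 9 lower, with 9 lower without control replicate 2 and 8 without control replicate 3. Of the other pathway genes, 1 to 7 were higher (1 without KO replicate 1, 7 without control replicate 3) and 2 to 4 lower (4 when either of these was left out). The cause of these moves was not tested. With the replicate number as a block, edgeR called 0 genes, and 6 of the 39 were lower and 0 higher at an unadjusted p under 0.05. Deviations from group means of same-numbered libraries correlated at 0.038, 0.016 and 0.033, all under 0.1, so the numbers were not taken as pairs. Every KO library correlated best with the control of its own number, while the other pairs lay between -0.039 and 0.0079. The labels do not explain this order, and whether the numbers mark pairs was not tested. Depth limited none of the 39 genes, but 3 libraries a group limit every comparison.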
